A study of Mus musculus with 12 samples.

Results

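The heat-shock chaperone genes described here are 9 chaperones, Hspa1a, Hspa1b, Hsph1, Dnajb1, Hspb1, Hsp90aa1, Hspa8, Hspd1 and Hspe1, and Hsf1, the transcription factor that switches on their response to heat. They were taken by symbol and are 10 of the 20308 genes in the table of expected counts. RNA was sequenced from the lining of the urogenital sinus, from which the bladder neck, urethra and prostate arise, of mouse embryos (C57BL/6J) on embryonic day 15.5. The Control group (4 libraries) was wildtype, and the Dnmt1cKO group (8 libraries) was made from embryos in which Cre driven by Shh deleted Dnmt1, the enzyme that copies DNA methylation after replication, in this epithelium. Both groups were freed from stroma with trypsin and lysed directly, with several embryos pooled into a lysate for each harvest batch. Cre under Shh acts in other Shh-expressing tissues of the embryo as well, and whether the Controls carried the Cre transgene is not given in the sources used here. The genes were chosen by their expected counts in these same 12 libraries, with the difference between the groups already known. Their values in it are therefore a description, and the tests printed for them give no independent support.

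Chaperones bind unfolded protein and help it fold or keep it from clumping. Cells keep constitutive forms at high level at all times, such as Hspa8 of the 70-kDa class, and add inducible forms, such as Hspa1a and Hspa1b, when proteins unfold. The inducible forms are transcribed when Hsf1 protein, held inactive in unstressed cells, assembles into trimers and binds heat-shock elements, which are alternating GAA and TTC units at a fixed spacing. Because Hsf1 is controlled largely as a protein, its transcript level is not a measure of its activity. Tissue dissociation is itself known to induce many of these genes.

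Matches to the units of heat-shock elements near the starts of these genes are printed first, since Hsf1 protein binds such elements. Binding was not measured here. RefSeq promoter windows on GRCm38.p6 (250 bases before to 50 after a start, 300 bases in all) were at hand for 7 of the 10 genes, in 10 windows. Hspa8, Hsp90aa1 and Hsf1 had no entry. The search was for 2 units facing each other (GAANNTTC or TTCNNGAA), for 3 units (GAANNTTCNNGAA or TTCNNGAANNTTC) and for 4 units in the same alternation, on both strands, so a longer match contains the shorter ones. Capitals mark the units found.
Hspa1b, chr17:34959239-34959388, minus strand: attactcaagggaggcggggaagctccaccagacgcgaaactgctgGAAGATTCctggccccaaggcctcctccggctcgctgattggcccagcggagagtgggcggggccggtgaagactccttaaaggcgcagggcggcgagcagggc
Hspa1a, chr17:34972157-34972306, minus strand: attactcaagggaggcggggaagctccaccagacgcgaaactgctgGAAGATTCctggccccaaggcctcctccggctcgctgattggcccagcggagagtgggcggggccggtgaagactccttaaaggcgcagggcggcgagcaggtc
Hspb1, chr5:135887769-135887868, plus strand: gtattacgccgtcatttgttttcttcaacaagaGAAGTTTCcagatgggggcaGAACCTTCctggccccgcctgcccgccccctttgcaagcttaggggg
Hspe1, chr1:55088053-55088082, plus strand: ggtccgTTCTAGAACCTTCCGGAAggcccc
Hsph1, chr5:149636286-149636315, minus strand: gtaaaatgctgcagaTTCTGGAAAGTTCtc

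The printed stretches were picked for their matches. The Hspa1a and Hspa1b stretches are the 150 bases before each start, and in both the match begins 104 bases before it. The 250 upstream bases of these neighbouring genes differ at 3 positions, an identity of 98.8%. The Hspe1 stretch holds 4 units in a row, beginning 89 bases before its start, and lies upstream of the Hspd1 start at 55087932, whose window holds the same bases on the other strand. Hspd1 has another start at 55088243, inside Hspe1, so the stretch lies within the annotated extent of Hspd1, and the window from that start held no match. The Hsph1 stretch begins at its start and its 3 units lie downstream of it. In all, 6 of the 7 genes had a match of 2 units in at least 1 window, and 3 of them (Hspd1, Hspe1 and Hsph1) a match of 3. Among all 32851 RefSeq windows of this length, 15.1% held a match of 2 units, 0.603% of 3 units, and 0.0244% (8 windows) of 4. Neither Dnajb1 window held one, which says only that these letters are absent from these windows. The windows also differ in CG dinucleotides, the kind of site at which Dnmt1 copies methylation where there is any. Hspa1b had 16, Hspa1a 15, Hspb1 14 and Hsph1 18 and 19, whereas Hspd1 had 39, Hspe1 36 and Dnajb1 36 and 41, and the median of all windows was 7. Methylation was not measured in these libraries.

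Depth sets how far each library can be read. The table sums to 7577706 expected counts for Control 1, 2915193 for Control 2, 1613514 for Control 3, only 543591 for the library labelled Control 4, and 4007533 to 11970907 across Dnmt1cKO. Levels below are CPM, the usual depth-scaled counts, after TMM adjustment of the library totals, so 3 counts of a gene amount to 2.26 CPM for Control 3 and to 8.51 CPM for the library labelled Control 4. Levels at 0 there may lie anywhere under these floors. Dnmt1, the deleted gene, stood at 164, 114 and 236 CPM in Controls 1 to 3 and at 22.8 to 96.7 CPM in the Dnmt1cKO libraries. A single count of it, 2.84 CPM, was found in the library labelled Control 4, which goes against that label. All 14 epithelial marker genes were in the table and none was at 0 in all libraries. Over all 12761 genes that passed the filter, edgeR's quasi-likelihood test at a Benjamini-Hochberg adjusted p under 0.05 called 1.03% higher and 1.55% lower in Dnmt1cKO. The median log2 fold change of all genes was 0.22, against 0.38 when only library totals were used and 0.07 under RLE factors. The share of called genes that were higher was 40%, against 71.1% and 19% under the same scalings.

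All 10 genes passed the filter. By the test above 2 of them, Hspa1b and Hsph1, were called higher in Dnmt1cKO and 0 lower, beside the 1.03% and 1.55% of all genes (2.59% in either direction). With no adjustment, 4 were higher and 1 lower at a p under 0.05, and 17.7% of all genes passed that threshold in either direction. In the same 2 genes every Dnmt1cKO library lay above every Control, which held for 2.59% of all genes, and in 0 every one lay below, which held for 0.486%. The fold change was positive in 8 of the 10 and in 57.3% of all genes. Its median on the log2 scale was 0.91 over the 10 genes and 1.54 over the 6 inducible ones. RNA was pooled over cells, so a different level per cell and a different share of cells that express a gene cannot be told apart.

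**Figure D1:**
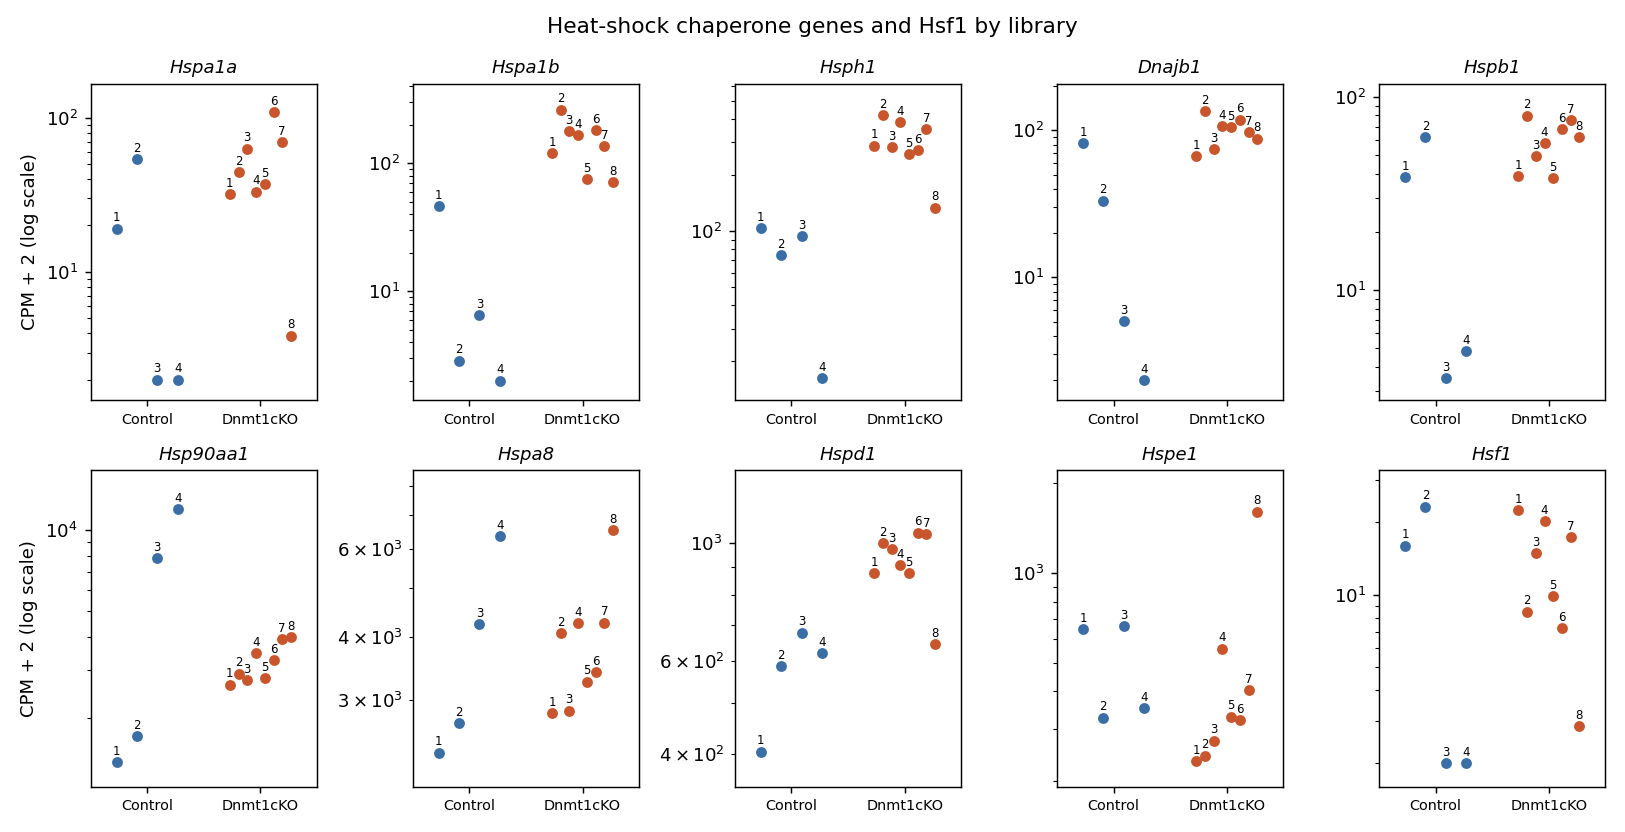
Level of each gene in every library, as CPM plus 2 on a log axis, with Control libraries in blue, Dnmt1cKO libraries in orange and the replicate number above each point. Hspa1b and Hsph1 are the genes whose groups do not overlap, and in the Hsp90aa1 panel all 8 Dnmt1cKO libraries lie between Controls 1 and 2 below and Control 3 and the library labelled Control 4 above.

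Hspa1b (ENSMUSG00000090877.3, chromosome 17, 34956436 to 34959238, minus strand, GRCm38) encodes an inducible 70-kDa chaperone that is nearly silent in most unstressed cells. It stood at 44.3, 0.87 and 4.51 CPM in Controls 1 to 3 and was at 0 in the library labelled Control 4. Levels in Dnmt1cKO ran from 69.9 to 261 CPM with a median of 150 CPM. Every Dnmt1cKO library lay above every Control, and Control 1 was the Control nearest to them. The group means were 12.4 ± 21.3 CPM (SD, n = 4) and 147 ± 63.1 CPM (SD, n = 8). The fitted log2 fold change was 3.41 ± 0.82 (SE), with an edgeR Benjamini-Hochberg adjusted p of 0.0176. Leaving out the library labelled Control 4 gave 3.13 and ended the call (adjusted p = 0.0836, with 0.449% of all genes called higher and 0.27% lower). Leaving out Control 3 as well gave 2.71 (adjusted p = 0.362). Leaving out Control 1 alone gave 6.12 (adjusted p = 0.00103, with 4.99% of all genes called higher and 3.75% lower). That fit keeps the 0.87 CPM of Control 2, which depends on how reads were divided between Hspa1b and Hspa1a, as described below. With both rows summed, edgeR without Control 1 gave 3.21 (adjusted p = 0.025).

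Hspa1a (ENSMUSG00000091971.3, chromosome 17, 34969190 to 34972156, minus strand) lies next to Hspa1b and encodes nearly the same protein. Control 1 had 17.1 and Control 2 51.9 CPM, whereas Control 3 and the library labelled Control 4 had none. The lowest, median and highest Dnmt1cKO levels were 1.86, 38.6 and 107 CPM. Only 3 of the 8 Dnmt1cKO libraries lay above Control 2, and Dnmt1cKO 8 lay below Controls 1 and 2. The groups differed by 1.38 ± 0.98 (SE) on the log2 scale, short of the threshold (edgeR, Benjamini-Hochberg adjusted p = 0.499).

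The division of reads between these genes is uncertain. Their coding sequences, of 1926 and 1929 bases, differ at 8 aligned bases plus 3 in gaps, an identity of 99.6%, with an identical run of 638 bases. Of all stretches of 50 bases in the Hspa1a coding sequence, 82.3% also occur in Hspa1b and 0% in Hspa8. Both rows held fractional values in 10 of the 12 libraries, as arises when software divides reads that match several transcripts. Hspa1a took 27.8% of the counts of the pair in Control 1, 98.4% in Control 2 and 0% of 6 counts in Control 3, and the library labelled Control 4 had no count of either. In the Dnmt1cKO libraries it took 20.2%, 13.9%, 25.7%, 15.9%, 32.3%, 37.1%, 33.4% and 2.59%. Control 2 was thus the library in which nearly all reads went to Hspa1a, and its Hspa1b level of 0.87 CPM depends on that division.

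The sum of both rows does not depend on it. The sum stood at 61.3, 52.8 and 4.51 CPM in Controls 1 to 3 and at 0 in the library labelled Control 4. The Dnmt1cKO sums ran from 71.7 to 304 CPM with a median of 199 CPM. Every Dnmt1cKO library lay above every Control, by a narrow margin between Dnmt1cKO 8 and Control 1. With CPM by library totals those libraries changed places, at 62.8 CPM in Dnmt1cKO 8 and 66.0 CPM in Control 1. Fitted as a single row among all genes, the sum had a log2 fold change of 2.63 ± 0.70 (SE) and an edgeR Benjamini-Hochberg adjusted p of 0.0349. The sum was examined under the alternatives after its values were seen. In all 20 of them it was higher in Dnmt1cKO, with log2 fold changes from 1.83 to 3.92, and it was called in 8, with adjusted p from 0.00387 to 0.434. The lowest of these fold changes, without Control 3 and the library labelled Control 4, had an adjusted p of 0.138.

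**Figure D2:**
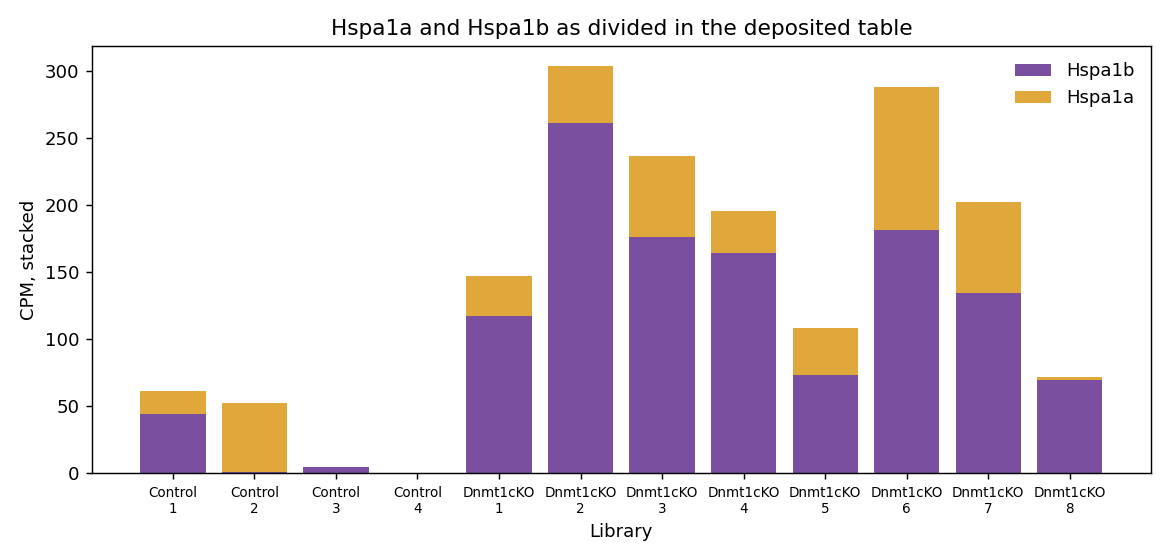
Stacked bars of the CPM of Hspa1b (purple) and Hspa1a (yellow) in each library as the deposited table divides them. Control 2 is nearly all Hspa1a, the library labelled Control 4 has neither, and the Dnmt1cKO sums run from 71.7 to 304 CPM.

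Hsph1 (ENSMUSG00000029657.15, chromosome 5, 149614287 to 149636376, minus strand) encodes the 110-kDa partner of the 70-kDa class, which exchanges its nucleotide. It stood at 102, 72.7 and 92.5 CPM in Controls 1 to 3 and at 14.2 CPM in the library labelled Control 4. Its lowest, median and highest Dnmt1cKO levels were 132, 284 and 420 CPM. No Dnmt1cKO library overlapped a Control, and Controls 1 to 3 lay close together. The group means were 70.4 ± 39.4 CPM (SD, n = 4) and 298 ± 88.9 CPM (SD, n = 8). This is a log2 fold change of 2.06 ± 0.50 (SE), with an edgeR Benjamini-Hochberg adjusted p of 0.0203. It remained called when any library was left out, with adjusted p from 0.0089 to 0.0455. Without Control 3 and the library labelled Control 4 it was 3.55-fold higher with an adjusted p of 0.0437, where 0.322% of all genes were called higher and 0.0143% lower. It was not called by limma-voom with quality weights, where the adjusted p was 0.114.

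Dnajb1 (ENSMUSG00000005483.10, chromosome 8, 83608193 to 83612653, plus strand) encodes the inducible J-domain partner that delivers substrate to the 70-kDa class. It stood at 79.5, 31.3 and 3.01 CPM in Controls 1 to 3 and at 0 in the library labelled Control 4. Dnmt1cKO libraries ran from 64.6 to 133 CPM with a median of 99.7 CPM. Control 1 lay above 2 of the 8 Dnmt1cKO libraries, and the other Controls below all of them. By edgeR the log2 fold change was 1.71 ± 0.75 (SE) and was not called (Benjamini-Hochberg adjusted p = 0.222). Without Control 1 it was 2.93 and called, with an adjusted p of 0.0387, where 4.99% of all genes were called higher.

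Hspb1 (ENSMUSG00000004951.10, chromosome 5, 135887919 to 135889563, plus strand) encodes a small heat-shock protein that holds unfolded protein without using ATP. It stood at 36.4, 59.5 and 1.504 CPM in Controls 1 to 3 and at 2.84 CPM in the library labelled Control 4. Among Dnmt1cKO libraries the lowest, median and highest levels were 35.8, 57.6 and 78.0 CPM. Control 2 lay above 4 of the 8 and Control 1 above 1. Its log2 fold change of 1.12 ± 0.79 (SE) was not called (edgeR, Benjamini-Hochberg adjusted p = 0.494).

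Hsp90aa1 (ENSMUSG00000021270.13, chromosome 12, 110690605 to 110702728, minus strand) encodes the inducible 90-kDa chaperone of the cytosol, which is also abundant without stress. Controls 1 to 3 stood at 1366, 1709 and 7847 CPM and the library labelled Control 4 at 11982 CPM. Levels in Dnmt1cKO ran from 2656 to 4000 CPM with a median of 3092 CPM. Controls 1 and 2 lay below, and Control 3 and the library labelled Control 4 above, all 8 Dnmt1cKO libraries. A log2 fold change of -0.83 ± 0.38 (SE) resulted, which was not called (edgeR, Benjamini-Hochberg adjusted p = 0.25). Its sign rested on Control 3 and the library labelled Control 4. Without both it was 1.13 with an adjusted p of 0.0758, and without Control 1 it was -1.15 and called lower with an adjusted p of 0.0407, where 3.75% of all genes were called lower.

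Hspa8 (ENSMUSG00000015656.17, chromosome 9, 40800984 to 40810087, plus strand) encodes the constitutive 70-kDa chaperone. It stood at 2358, 2699 and 4249 CPM in Controls 1 to 3 and at 6356 CPM in the library labelled Control 4. The lowest, median and highest Dnmt1cKO levels were 2829, 3741 and 6518 CPM, the highest in Dnmt1cKO 8. The groups overlapped, although Controls 1 and 2 lay below all 8 Dnmt1cKO libraries. Its log2 fold change was 0.01 ± 0.30 (SE, edgeR, Benjamini-Hochberg adjusted p = 0.993), and -0.66 with RLE factors.

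Setting inducible genes against constitutive relatives in the same library removes the scaling between libraries, and the pairs were chosen after the values were seen. Hspa1a and Hspa1b together gave 2.60, 1.96 and 0.106 counts per 100 counts of Hspa8 in Controls 1 to 3 and 0 in the library labelled Control 4. This ratio was lowest at 1.10 among Dnmt1cKO libraries, in Dnmt1cKO 8, with a median of 4.97 and a highest value of 8.45. The other 7 Dnmt1cKO libraries lay above all Controls, and Dnmt1cKO 8 lay below Controls 1 and 2. Hsph1 gave 17.6, 12.4 and 16.2 counts per 100 counts of Hspa4, its constitutive relative, in Controls 1 to 3 and 2.31 in the library labelled Control 4. The Dnmt1cKO ratios ran from 19.4 to 43.5 with a median of 30.7, all above every Control. Set against Hspa8 instead, Hsph1 gave 4.33, 2.69 and 2.18 per 100 in Controls 1 to 3 and 0.223 in the library labelled Control 4. The median over the Dnmt1cKO libraries was 8.61 and the highest 10.3. By that ratio 7 of the 8 lay above all Controls, and Dnmt1cKO 8, at 2.03, lay below Controls 1 to 3. For Dnajb1 against the constitutive J-domain gene Dnaja2, Controls 1 to 3 gave 24.9, 16.4 and 0.821 per 100 and the library labelled Control 4 gave 0, against 18.3 to 40.4 in Dnmt1cKO. Of the 8 Dnmt1cKO libraries 5 lay above all Controls. With all 4 Controls, Hsp90aa1 did not follow the other inducible genes, which rested on Control 3 and the library labelled Control 4, those of lowest depth. Hsp90aa1 gave 23.5, 24.6 and 94.9 counts per 100 counts of the constitutive Hsp90ab1 in Controls 1 to 3 and 127 in the library labelled Control 4. All 8 Dnmt1cKO libraries, at 30.4 to 56.7, lay above Controls 1 and 2 and below the other Controls.

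**Figure D3:**
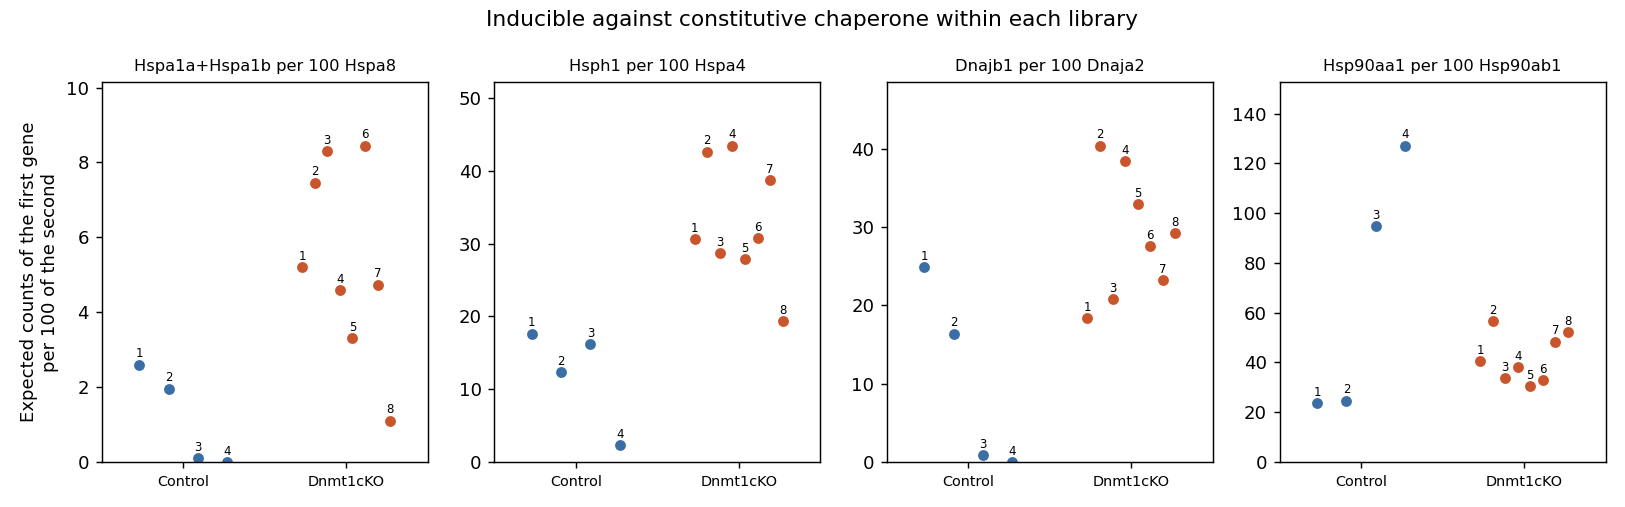
Expected counts of an inducible chaperone per 100 counts of a constitutive relative, for each library, on linear axes from 0, with the replicate number above each point. All 8 Dnmt1cKO libraries exceed every Control for Hsph1 per 100 Hspa4, 7 do for the Hspa1 pair per 100 Hspa8, 5 for Dnajb1 per 100 Dnaja2 and 0 for Hsp90aa1 per 100 Hsp90ab1. In that last ratio all 8 lie above Controls 1 and 2 and below Control 3 and the library labelled Control 4.

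Hspd1 and Hspe1 encode the chaperonin of the mitochondrial matrix and its lid, and lie on opposite strands with their 5′ ends overlapping. Hspd1 (ENSMUSG00000025980.14, chromosome 1, 55077835 to 55088243, minus strand) had 402, 584 and 676 CPM in Controls 1 to 3, with 619 CPM in the library labelled Control 4. Its Dnmt1cKO levels ran from 643 to 1045 CPM with a median of 939 CPM. Except for Dnmt1cKO 8, the lowest, which lay below Control 3, the Dnmt1cKO libraries lay above all Controls. Its log2 fold change of 0.69 ± 0.33 (SE) was not called (edgeR, Benjamini-Hochberg adjusted p = 0.259).

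Hspe1 (ENSMUSG00000073676.4, chromosome 1, 55088132 to 55091307, plus strand) had 645, 325 and 662 CPM in Controls 1 to 3, with 349 CPM in the library labelled Control 4. Across Dnmt1cKO the lowest, median and highest levels were 232, 323 and 1602 CPM, the highest again in Dnmt1cKO 8. The groups overlapped, with a log2 fold change of -0.01 ± 0.45 (SE, edgeR, Benjamini-Hochberg adjusted p = 0.997). The ratio of the pair varied between libraries. Hspe1 gave 160, 55.6 and 97.9 counts per 100 counts of Hspd1 in Controls 1 to 3 and 56.4 in the library labelled Control 4. Across Dnmt1cKO the lowest, median and highest ratios were 24.2, 33.9 and 249.2, so 6 of the 8 libraries lay below every Control and Dnmt1cKO 8 above. The annotated Hspd1 start at 55088243 lies inside Hspe1, so where strand was not used reads from the overlap cannot be told apart. Against Hspa9, the 70-kDa chaperone of the same compartment, Hspd1 gave 76.8 to 105 counts per 100 in Control and 103 to 145 in Dnmt1cKO, with 7 of the 8 Dnmt1cKO libraries above all Controls.

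Hsf1 (ENSMUSG00000022556.11, chromosome 15, 76477422 to 76501913, plus strand) was the least abundant of the 10 genes. Control 1 had 14.0 and Control 2 21.2 CPM, and neither Control 3 nor the library labelled Control 4 had a count. Its Dnmt1cKO levels ran from 0.854 to 20.5 CPM with a median of 10.4 CPM, and all 8 libraries lay below Control 2. By edgeR the log2 fold change was 0.24 ± 1.15 (SE), with a Benjamini-Hochberg adjusted p of 0.941. With so wide an error no difference in this transcript was detectable.

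Across these genes, Control 3 and the library labelled Control 4 were low or at 0 for Hspa1a, Hspa1b, Dnajb1, Hspb1 and Hsf1 and high for Hsp90aa1. These are the libraries with the lowest depth, and their summed cell type markers differed as well. Of the 12 libraries, Control 3 had the lowest epithelial sum (4006 CPM). It had the highest stromal, erythroid, neural, immune and endothelial sums (9848, 3438, 447, 223 and 142 CPM). The library labelled Control 4 had the highest epithelial sum (36543 CPM). The part of depth or of cell mix in these levels was not tested. Within the codes that both groups carry in their descriptions, whose meaning is not stated, Dnmt1cKO minus Control in mean log2(CPM + 2) was 1.44, 2.37, 1.46 and 3.86 for Hsph1 at the codes 4, 5, 6 and 7. For the sum of Hspa1a and Hspa1b it was 1.92, 1.85, 4.08 and 6.35, and for Hsp90aa1 1.01, 1.02, -1.48 and -1.69. The median of all genes in the same differences was -0.03, 0.18, 1.005 and 1.83, and at the codes of Control 3 and the library labelled Control 4 64.7% and 78.3% of all genes were higher in Dnmt1cKO. Each code holds a single Control library, so these values have no test.

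Per kilobase of exon, the order of mean levels in Dnmt1cKO separated the constitutive and mitochondrial genes from most inducible ones. The length was that of the merged exons of all annotated transcripts, 7.27 kb for Hsph1 and 1.03 kb for Hspb1. The order among the inducible genes depends on it, and the places of Hspa1a and Hspa1b also on the division of their reads. Hspa8 (915 ± 278 CPM per kb, SD, n = 8) and Hsp90aa1 (820 ± 134) headed it, and each was the higher of this pair in 4 of the 8 libraries. Hspd1 (348 ± 49.3) and Hspe1 (335 ± 312) followed, with Hspd1 higher in 6 libraries. Hspb1 (54.9 ± 15.3), Hspa1b (52.6 ± 22.5) and Hsph1 (41.0 ± 12.2) lay within each other's spread. Dnajb1 (30.3 ± 7.03) was below Hsph1 in 7 libraries and above Hspa1a (15.8 ± 10.6) in all 8. Hsf1 was last at 1.54 ± 0.966 CPM per kb. In Control, Hspa1b stood at 4.43 ± 7.61, Hsph1 at 9.69 ± 5.43, Hspa8 at 910 ± 424 and Hsp90aa1 at 1457 ± 1304 CPM per kb (SD, n = 4).

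The other chaperone genes were listed by role, 88 in all, of which 86 were in the table and 76 passed the filter. None was called in either direction by edgeR's quasi-likelihood test at an adjusted p under 0.05, while 9 higher and 4 lower had an unadjusted p under 0.05, a threshold that 17.7% of all genes passed. DESeq2 called 2 higher (Hspa4l and Hyou1) and 4 lower, beside 519 higher and 1036 lower of all 15825 genes in that fit. By limma-voom 0 were higher and 2 lower, beside 8 and 31 of all 12761. Their median log2 fold change was 0.33, beside 0.22 for all genes tested. In 7 of the 76 (9.21%) every Dnmt1cKO library lay above every Control, beside 2.59% of all genes.

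The 18 other inducible genes of the cytosol had a median log2 fold change of 0.31. Ubb, a polyubiquitin gene, stood at 890 ± 383 CPM in Control and 1186 ± 155 CPM in Dnmt1cKO (log2 fold change 0.41, edgeR Benjamini-Hochberg adjusted p = 0.552). Dnaja1, a J-domain partner, stood at 220 ± 231 and 575 ± 80.9 CPM (1.37, adjusted p = 0.183). Fkbp4, a partner of the 90-kDa class, stood at 557 ± 307 and 387 ± 109 CPM (-0.52, adjusted p = 0.503). Bag3, which Hsf1 also drives and which links the 70-kDa class to autophagy, ran the other way from Hspa1b at 108 ± 75.1 and 34.4 ± 9.59 CPM (-1.63, adjusted p = 0.149), and was named after its values were seen. Of the 18 genes, 11 had a positive fold change (61.1%, beside 57.3% of all genes), with 3 higher and 1 lower by unadjusted p.

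The 24 constitutive genes of the cytosol tested had a median of 0.06, with 0 called, and 0 higher and 3 lower by unadjusted p. Hsp90ab1, the constitutive 90-kDa chaperone, stood at 7608 ± 1571 and 7980 ± 1550 CPM (log2 fold change 0.07, edgeR Benjamini-Hochberg adjusted p = 0.919). Tcp1, a subunit of the cytosolic chaperonin, stood at 994 ± 217 and 1035 ± 214 CPM (0.06, adjusted p = 0.948), and Naca, which shields nascent chains at the ribosome, at 1511 ± 212 and 813 ± 508 CPM (-0.89, adjusted p = 0.163). The 10 other mitochondrial genes had a median of 0.23. Hspa9 stood at 642 ± 191 and 700.0 ± 80.1 CPM (0.13, adjusted p = 0.88), and the protease gene Lonp1 at 103 ± 87.9 and 99.6 ± 24.5 CPM (-0.06, adjusted p = 0.973). Dnaja3, a mitochondrial J-domain gene, stood at 27.6 ± 18.2 and 89.1 ± 22.9 CPM (1.67, adjusted p = 0.18).

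The 18 genes of the endoplasmic reticulum had a median of 0.99, beside 0.22 for all genes, and 0 were called. The fold change was positive in 16 (88.9%, beside 57.3% of all genes), and 5 were higher by unadjusted p, as were 1045 of all 12761 genes. That median was 0.59 without Control 3 and the library labelled Control 4. Its most abundant members were Hsp90b1, the 90-kDa chaperone of this compartment, at 3754 ± 2445 and 2535 ± 513 CPM (log2 fold change -0.57, edgeR Benjamini-Hochberg adjusted p = 0.356), and the lectin chaperone Calr at 2527 ± 458 and 2996 ± 421 CPM (0.25, adjusted p = 0.684). P4hb, a disulfide isomerase, stood at 1207 ± 274 and 1299 ± 292 CPM (0.11, adjusted p = 0.895). Of the 12 testis chaperones 4 passed the filter. The most abundant, Hspa2, stood at 18.0 ± 19.6 and 56.7 ± 23.7 CPM (1.58, adjusted p = 0.322), Dnajb3 at 5.83 ± 7.94 and 9.27 ± 6.62 CPM (0.58, adjusted p = 0.85), and Calr3 at 0.0613 ± 0.123 and 2.06 ± 2.89 CPM (adjusted p = 0.349). Of the other heat-shock factor genes, Hsf2 stood at 20.7 ± 14.1 and 25.4 ± 8.66 CPM (0.27, adjusted p = 0.901) and Hsbp1, which binds Hsf1, at 50.7 ± 38.6 and 36.9 ± 7.25 CPM (-0.48, adjusted p = 0.771).

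**Figure D4:**
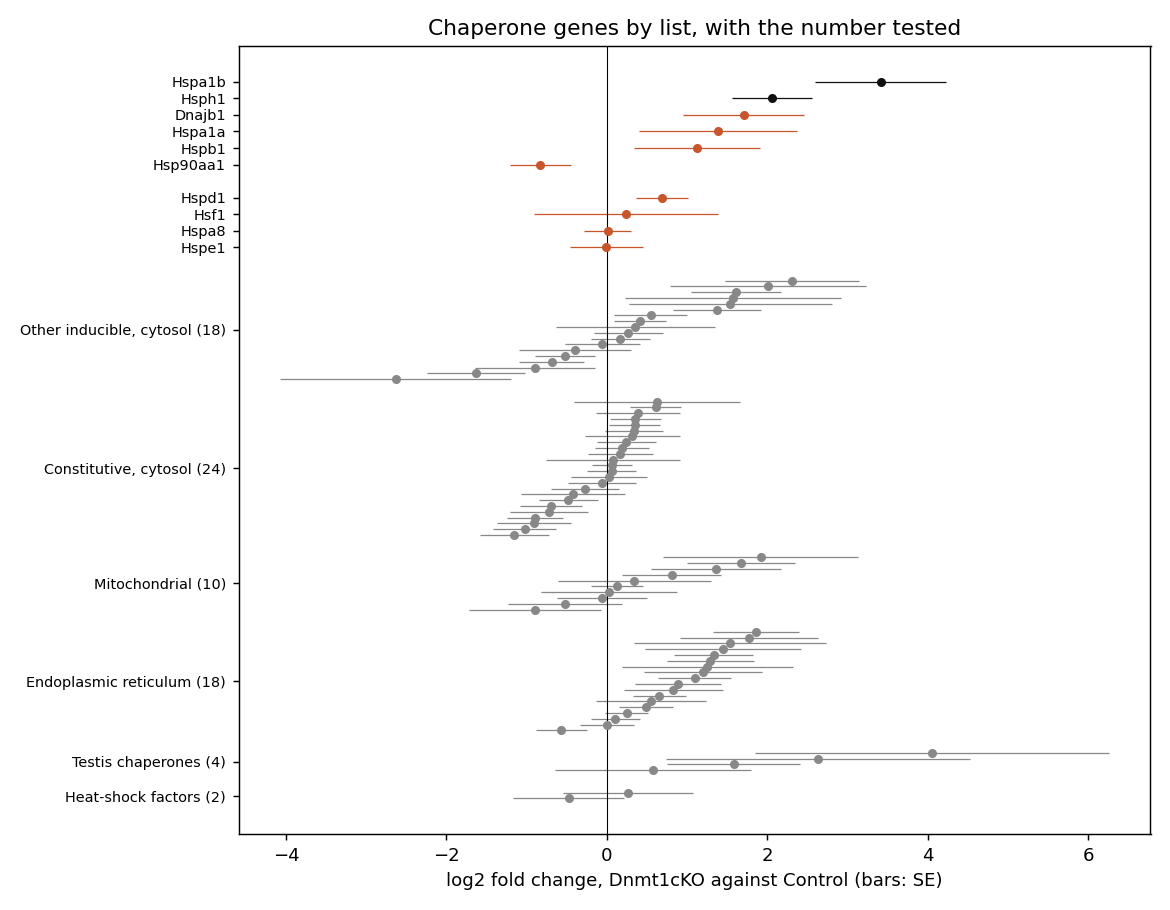
Log2 fold change of Dnmt1cKO against Control with its standard error for each of the 10 genes by name and for the other chaperone genes by list, with the number tested in brackets. Black points passed the edgeR test (Hspa1b and Hsph1), and the inducible genes of the cytosol spread to both sides of 0.

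Genes that respond to dissociation and markers of other cell types were read beside the chaperones. Of the 19 immediate-early genes tested, edgeR's quasi-likelihood test called 0, with a median log2 fold change of -0.20. By its unadjusted p under 0.05, 4 were higher and 3 lower, beside 1045 higher and 1218 lower of all 12761 genes. Their summed level was 878 to 1813 CPM in Control and 763 to 1326 CPM in Dnmt1cKO, with none of the 21 listed genes at 0 in all libraries. Mcl1, an anti-apoptotic gene, stood at 320 ± 227 and 280 ± 36.0 CPM, and the transcription factor Jun at 130 ± 12.6 and 184 ± 80.3 CPM. Ier2, another early-response gene, stood at 299 ± 405 and 87.0 ± 29.98 CPM. The 4 higher by unadjusted p were less abundant, and their groups overlapped. Fos stood at 2.32 and 17.2 CPM, Junb at 4.04 and 31.9, Atf3 at 0.0307 and 6.36, and Ier3 at 0 and 3.29. The 3 lower were Ier2, Jund (142 and 54.4 CPM) and Nr4a1 (13.2 and 1.28 CPM). The summed level mostly follows the abundant genes and says little of these 4. The 10 oxidative stress genes had a median of 1.04 with 0 called and 2 higher at an unadjusted p under 0.05. Their sum was 358 to 1226 CPM in Control and 722 to 1382 CPM in Dnmt1cKO. Prdx1 stood at 505 ± 226 and 484 ± 241 CPM (log2 fold change -0.06, edgeR Benjamini-Hochberg adjusted p = 0.96). Txnrd1 stood at 64.2 ± 58.9 and 229 ± 66.5 CPM (1.81, adjusted p = 0.0554), and Mt2 at 73.2 ± 120 and 24.3 ± 12.1 CPM (-1.55, adjusted p = 0.365). Stromal markers had a negative fold change in 12 of 12, while 57.3% of all genes had a positive one. Their median was -1.31, with 0 called and 3 lower by unadjusted p. The stromal sum was 1249 to 9848 CPM in Control and 293 to 6298 CPM in Dnmt1cKO. Neural markers had a negative fold change in 5 of 5 tested, and Elavl3, a neuronal RNA-binding protein gene, was called lower (log2 fold change -3.97, edgeR Benjamini-Hochberg adjusted p = 0.0382). They summed to 79.7 to 447 CPM in Control and 4.25 to 246 CPM in Dnmt1cKO. Epithelial markers summed to 4006 to 36543 CPM in Control and 6808 to 12267 CPM in Dnmt1cKO. The sums in the same order were 351 to 3438 and 5.27 to 759 CPM for erythroid, 2.84 to 223 and 9.56 to 69.0 CPM for immune and 8.51 to 142 and 4.89 to 72.0 CPM for endothelial markers. By unadjusted p 3 of the 14 epithelial, 2 of the 6 endothelial, 1 of the 4 tested erythroid and 0 of the 6 immune markers were lower. In these lists 0 were higher. No listed marker was at 0 in all 12 libraries. The part of these genes in the chaperone levels was not tested.

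Of 8117 tested genes whose mean log2 CPM reached 4, those whose log2(CPM + 2) was most like that of Hspa1b over the 12 libraries were Ranbp9 (Pearson r 0.970), Zfp143 (0.970), Elf4 (0.968), Nsf (0.965) and Brwd3 (0.964). These points share the differences in depth described above. The Hspa1b row was used alone, and its Control 2 level depends on the division of reads with Hspa1a. Over the 8 Dnmt1cKO libraries alone, genes among the closest were Ppard (0.967), Tex10 (0.949), Cpsf6 (0.932) and Uap1 (0.923). Among the chaperones in those 8 libraries, the sum of Hspa1a and Hspa1b had an r of 0.790 with Hsph1, 0.901 with Hspd1, 0.400 with Dnajb1, -0.27 with Hsp90aa1 and -0.45 with Hspa8. Spearman's rho was 0.595, 0.881, 0.548, -0.17 and -0.14 for the same genes. Without Dnmt1cKO 5 and 8, the libraries farthest from the median of the sum, r was 0.193, 0.751, 0.764, 0.071 and 0.272 over 6 libraries. The relation to Hsph1 and the signs for Hsp90aa1 and Hspa8 thus rested on those libraries. Dnmt1cKO 8 was the lowest of the 8 for the sum, Hsph1 and Hspd1 and the highest for Hsp90aa1 and Hspa8. The sum and these genes share the libraries' scaling.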

How the data were processed

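Poly-A RNA of 12 libraries was sequenced. The deposited table holds expected counts per gene symbol, which are estimated counts made by the authors' software. The submitters' processing notes name RSEM 1.2.3, Bowtie 0.12.9, bcl2fastq 2.17.1.14 and mm10, with no order or role. Not given in the sources used here: annotation, mapping parameters and use of strand. No molecular identifiers are mentioned, so floors cover counting error only. Expected counts were rounded and fitted with edgeR 4.0.16 (R 4.3.3), using TMM factors, filterByExpr (minimum count 10, minimum total 15), robust quasi-likelihood F-tests with genotype as the only term, and Benjamini-Hochberg adjustment over all 12761 genes, with an adjusted p under 0.05 called. Log2 fold changes are Dnmt1cKO against Control. Whether libraries came from separate lysates is not stated for each, so p-values measure only how these libraries spread, which may be technical. DESeq2 1.42.0, limma 3.58.1 (voom), other scaling factors, no filter, single libraries left out and replicate blocks were tried as alternatives. The script was run on simulated counts that varied less between libraries than these data, so that run does not measure its error rate here. Gene positions and exon lengths are from GENCODE M21, and coding sequences were aligned with Biopython 1.88.

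The genes and lists were chosen with earlier results of these data known. Named besides the 10 genes were, from each list, called genes and the 3 most abundant, and the 5 genes most like Hspa1b over all and over Dnmt1cKO libraries, of which 1 is not reported here. For marker lists the summed level stands for the abundant genes. The ratio pairs, the printed stretches, Bag3 and the early-response genes named by unadjusted p were picked after values were seen. Cct6a and Pfdn6 were not found under those symbols.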

Additional observations from a re-analysis of the deposited data

Results flagged for a closer look

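In 4 of the 22 groups of libraries examined for these genes and the sum of Hspa1a and Hspa1b, 1 library lay far from the rest by Dixon's criterion. Independent groups of normally spread values would meet it in about 1.1 of 22. The groups here share libraries, and the sum repeats Hspa1a and Hspa1b, so these counts cannot show an excess over chance. Hspa1b stood at 44.28 CPM in Control 1, against 4.51 CPM in the next Control. In Control 2 98.4% of the counts of the pair went to Hspa1a, so this gap depends on the division of reads. For the sum, Controls 1 and 2 stood at 61.3 and 52.8 CPM, and no library met the criterion. The other 3 all concern Dnmt1cKO 8. There Hspa8 stood at 6518 CPM, against 4277 CPM in the next library of its group, Hspd1 at 643 CPM, against 875 CPM in the next lowest, and Hspe1 at 1602 CPM, against 555 CPM in the next highest. Dnmt1cKO 8 also held the lowest Hspa1a share of the Hspa1 pair (2.59%), and with 4009772 expected counts it was among the shallowest of its group. The part of depth in these values was not tested.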

How the results depend on the processing

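Hspa1a, Hspa1b, Hsph1, Dnajb1, Hspb1, Hspd1 and the Hspa1 sum kept a positive log2 fold change under every alternative run, and Hspa1b was called in 17 of 22 and Hsph1 in 19 of 23. Hspa1b lost its call by voom (adjusted p = 0.343), without the library labelled Control 4 and without it and Control 3, Hsph1 by voom and with the title-number block (adjusted p = 0.243), and both genes in the subsets without a block. Where a sign turned, the value was small or rested on few libraries, and the cause was not tested. Hsp90aa1 became 0.75 with voom and 1.13 without Control 3 and the library labelled Control 4. Hspa8 became -0.66 with RLE factors and with DESeq2, and ran from -0.17 to 0.42 when 1 library was left out. Hspe1 became 0.15 with library totals, 0.0583 without a filter and 0.0788 without Control 3 and the library labelled Control 4, and ran from -0.51 to 0.17 when 1 library was left out. Hsf1 became -0.0773 with voom and -0.61 without Control 3 and the library labelled Control 4, and ran from -0.18 to 1.05 when 1 library was left out.

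Of all genes, 132 were called higher and 198 lower. DESeq2 called 519 and 1036, voom 8 and 31, and the fit without Control 3 and the library labelled Control 4 called 45 and 2. RLE factors called 726 lower and library totals 46. With 1 library left out, 60 to 657 were called higher and 36 to 494 lower, the ends being without the library labelled Control 4 and without Control 1. Of the 10 genes, voom called 0 higher and the fit without Control 3 and the library labelled Control 4 called 1. With 1 library left out 1 to 3 were called higher and 0 to 1 lower. Of the other chaperones, RLE factors called 1 higher (Hyou1) and 3 lower (Bag3, Ptges3, Stub1), no filter 1 higher (Hyou1), DESeq2 2 higher and 4 lower, and voom 2 lower. With 1 library left out 0 to 4 were called higher and 0 to 3 lower.

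Whether the description codes or the title numbers pair the libraries is not known. Deviations from the group means correlated at -0.06 to 0.06 between same-numbered libraries. Differently numbered libraries were not compared and the Controls differ widely in depth, so these values cannot decide whether same-numbered libraries share a batch. With the replicate block by code, on the libraries of shared codes, 137 of 12415 genes were called higher and 84 lower. Among those higher were Hspa1b and Hsph1 of the 10 genes and 4 other chaperones, and Hspa8 was -0.0305. The same libraries without a block, added after seeing the data, gave 114 genes higher, 56 lower, 0 of the 10 genes higher and Hspe1 at 0.22. With the replicate block by title number 21 genes were called higher, 29 lower and 1 of the 10 genes higher, and Hspa8 was -0.0675. The same libraries without a block, also added later, gave 21 higher, 36 lower, 0 of the 10 genes higher and Hspa8 at -0.19. Depth limits Control 3 and the library labelled Control 4 most: a gene at 0 there may lie below 2.26 or 8.51 CPM.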

Other observations

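The 110-kDa and 170-kDa relatives of the 70-kDa class exchange nucleotide for it in the cytosol and the endoplasmic reticulum, and all 4 of them in the table had every Dnmt1cKO library above every Control by TMM-scaled CPM, as did 2.59% of all genes. This grouping was noticed after the values were seen and has no test of its own. Besides Hsph1, Hspa4 stood at 580, 588 and 572 CPM in Controls 1 to 3 and 613 CPM in the library labelled Control 4, against 681 to 984 CPM in Dnmt1cKO. With CPM by library totals its groups overlapped, at 597 CPM in Dnmt1cKO 8 against 624 CPM in Control 1 and 599 CPM in Control 2. Its log2 fold change was 0.61 ± 0.32 (SE, edgeR, Benjamini-Hochberg adjusted p = 0.317). Hspa4l stood at 18.7, 28.9 and 0 CPM in Controls 1 to 3 and 6.53 CPM in the library labelled Control 4, against 46.0 to 102 CPM in Dnmt1cKO (2.31 ± 0.83, adjusted p = 0.131). Hyou1, the member of the endoplasmic reticulum, stood at 121, 121 and 47.4 CPM in Controls 1 to 3 and 5.67 CPM in the library labelled Control 4, against 202 to 405 CPM in Dnmt1cKO (1.86 ± 0.54, adjusted p = 0.0528). Hspa5, the 70-kDa chaperone that Hyou1 serves, stood at 809 ± 327 CPM in Control and 1273 ± 192 CPM in Dnmt1cKO, with 7 of the 8 Dnmt1cKO libraries above all Controls (0.65 ± 0.33, adjusted p = 0.302).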
